A study of Mus musculus with 6 samples.

Results

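The core genes of the circadian clock were examined in RNA-seq of mouse brain: Arntl, Clock and Npas2 of the positive arm, Per1, Per2 and Per3, Nr1d1 and Nr1d2 of the negative arm, and the outputs Dbp and Tef. These 10 genes were chosen by name, from 38087 genes in the deposited table. The study compared wild-type (WT, n = 3) with Sgo1-/+ mice (n = 3), all of strain C57BL6 and 24 months old, which had been kept without treatment. Sgo1-/+ mice carry 1 functional copy of Shugoshin-1, which protects the cohesion of sister chromatids, in every cell of the body. RNA came from frozen cerebrum with cortex and hippocampus, from which the study's methods say that olfactory bulb, cerebellum and medulla had been removed. Each genotype held 1 male (WT replicate 1 and Sgo1-/+ replicate 2). Run 258 held the WT samples and run 259 those of Sgo1-/+, and thus run and genotype cannot be told apart. The hour of the day at which each animal was euthanized is not given in the sources used here.

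In the molecular clock, ARNTL (BMAL1) pairs with CLOCK or NPAS2 and binds E-boxes, through which the Per, Cry, Nr1d, Dbp and Tef genes are transcribed. PER and CRY proteins then block that pair. NR1D1 and NR1D2 (REV-ERBs) silence Arntl, while ROR proteins activate it through the same DNA element, and DBP and TEF act through D-boxes. In rodent tissues with a rhythm, Arntl and Npas2 RNA therefore peaks at the opposite time of day from Nr1d1 and Dbp RNA, Per RNA follows somewhat later, and Clock RNA varies little. Animals collected at different hours would differ along this axis, so the members were read library by library as well as by genotype.

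The motifs behind this wiring were looked up in RefSeq promoter windows of GRCm38.p6, each holding 250 bases before a gene's start and 50 bases after it. Of the 10 members, 9 had a window, and Per2 had none in the table. The motifs were the E-box CACGTG, its variant CACGTT, the D-boxes TTATGTAA and TTACGTAA, the core AGGTCA of the REV-ERB and ROR element and the CRE TGACGTCA, through which CREB acts, each on both strands and none contained in another. The windows below are those with a match that belongs to the known wiring of the gene shown. Capitals mark the match, and sequences run 5′ to 3′ on the gene's strand.
Per1 promoter, chr11:69098699-69098998, plus strand: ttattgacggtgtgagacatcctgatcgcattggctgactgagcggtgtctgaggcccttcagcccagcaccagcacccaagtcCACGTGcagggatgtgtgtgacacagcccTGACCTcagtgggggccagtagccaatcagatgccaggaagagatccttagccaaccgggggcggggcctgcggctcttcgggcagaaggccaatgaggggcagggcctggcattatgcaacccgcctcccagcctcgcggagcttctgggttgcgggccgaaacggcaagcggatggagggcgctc
Tef promoter, chr15:81802423-81802722, plus strand: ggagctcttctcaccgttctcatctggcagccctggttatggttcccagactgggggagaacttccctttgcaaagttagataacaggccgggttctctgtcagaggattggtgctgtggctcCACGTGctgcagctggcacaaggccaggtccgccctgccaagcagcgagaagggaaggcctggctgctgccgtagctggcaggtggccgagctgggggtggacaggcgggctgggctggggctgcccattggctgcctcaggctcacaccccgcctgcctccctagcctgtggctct
Nr1d1 promoter, chr11:98775328-98775627, minus strand: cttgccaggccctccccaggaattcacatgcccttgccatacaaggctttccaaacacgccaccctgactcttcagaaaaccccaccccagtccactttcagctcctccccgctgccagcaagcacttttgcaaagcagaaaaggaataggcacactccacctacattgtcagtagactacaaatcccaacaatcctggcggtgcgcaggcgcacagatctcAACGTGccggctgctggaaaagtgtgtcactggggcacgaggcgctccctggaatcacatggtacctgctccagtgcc
Per3 promoter, chr4:151044616-151044915, minus strand: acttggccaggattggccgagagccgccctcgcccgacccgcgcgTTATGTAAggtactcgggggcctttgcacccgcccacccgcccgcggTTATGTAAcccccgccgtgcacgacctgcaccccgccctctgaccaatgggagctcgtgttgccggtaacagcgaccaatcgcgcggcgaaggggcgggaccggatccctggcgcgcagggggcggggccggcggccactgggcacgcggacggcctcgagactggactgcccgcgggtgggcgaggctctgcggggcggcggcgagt
Arntl promoter, chr7:113207261-113207560, plus strand: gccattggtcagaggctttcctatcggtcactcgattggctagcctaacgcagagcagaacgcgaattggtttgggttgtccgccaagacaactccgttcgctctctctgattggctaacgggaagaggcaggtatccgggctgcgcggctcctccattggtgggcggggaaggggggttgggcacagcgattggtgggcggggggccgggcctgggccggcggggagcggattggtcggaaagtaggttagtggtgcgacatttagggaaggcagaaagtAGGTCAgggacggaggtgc

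The E-box was found in Per1, with its first base at position -166 from the start, and in Tef, at -127 in the window shown and at -138 in that of a second start. Of 32851 mouse promoter windows, 7.15% held this motif. Nr1d1 held the E-box variant, read as AACGTG on its strand, at position -28, and 4.68% of windows held it. The bases just after this Nr1d1 start were found in no GENCODE transcript of the gene, unlike those of the other windows shown. Per3, a D-box gene, held TTATGTAA at -205 and again at -158, a match present in 1.06% of windows. The core AGGTCA occurred in 16.3% of windows, and in 4 members. In Arntl it began at position 32 after the start, in the second of its windows, and in Nr1d2 at -77. It was read as TGACCT in Clock, at -119 in the third of its windows, and in Per1, at -137. No CRE was in a member's window (1.79% of all windows), and the windows of Npas2 and Dbp held no match to any of these motifs. The shares are per window, while members were counted as genes, and Arntl, Clock, Per1 and Tef had several windows each. The counts of members are thus not on the scale of the shares. These matches describe the letters of short windows only.

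Libraries held between 11123917 and 12505561 estimated counts. Values below are normalized counts, that is, estimated counts scaled to the same TMM-adjusted library size, unless a log2 scale is named. The targeted gene was near the detection limit and gave no check of the labels: Sgo1 had 0, 7 and 0 estimated counts in WT and 4, 2 and 0 in Sgo1-/+, and at this depth a count of 0 allows up to 3 counts, for counting error only.

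WT replicate 1 stood apart before any clock gene was considered. Its mean correlation with the other 5 libraries, over log2 values of all tested genes, was 0.929, and those of the others were between 0.962 and 0.966. Its 8 markers of cortex and hippocampus summed to 3723 normalized counts, against 12500 to 16240 in the other libraries, and 5 of the 8 were lowest there. Most of this sum was Slc17a7 (2219, against 9456 to 11300). Neurod2 (703.9, against 605.9 to 850.2), Prox1 (496.5, against 203.8 to 652.8) and C1ql2 (38.27, against 8.115 to 178) were not low there. The 6 striatal markers of WT replicate 1 summed to 1593, against 8647 to 19520, and 6 of 6 were lowest. In the opposite direction, 8 of 8 cerebellar markers were highest in WT replicate 1 (sum 24340, against 985.8 to 2491), as were 6 of 7 brain stem markers (sum 4038, against 68.55 to 206.7). Among the defining brain stem markers Hoxa3 and Hoxc4 were listed at 0 in 4 of the other 5 libraries, and Hoxb3 and Hoxb5 in 3. The library's RNA thus held regional markers that go against the labelled dissection. The members' fold changes, the clock index and the correlations of Arntl with the other members are therefore given also without this library. WT replicate 1 was also the only WT male, so without it the sexes were not balanced between the genotypes. In bulk RNA, fewer cells of a type and less RNA per cell cannot be told apart.

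The markers of the suprachiasmatic nucleus and hypothalamus, where the master clock sits, gave low sums, which were not scaled by gene length. Their 9 genes summed to 422 normalized counts in WT replicate 1 and to between 448.4 and 1014 in the others. Lhx1, which cerebellar neurons also express, made up 358.5 of the 422, and without it the sum was 63.44 in WT replicate 1 and between 444.3 and 997.4 in the others. Avp, a rhythmic neuropeptide of that nucleus, was listed at 0 in WT replicate 1 and had 124.7 to 355.6 in 4 libraries and 8.185 in Sgo1-/+ replicate 3. In that last library Pmch (274.2) and Hcrt (101.3), neuropeptides of the lateral hypothalamus, had their highest values. Nms, which marks cells of the nucleus, was at 0 in 3 libraries. Oxt, also on this list, had 1.007, 368.5 and 60.86 in WT and 380.5, 237.1 and 5.116 in Sgo1-/+. Avp and Oxt are short genes, with medians of 277.7 and 277.4 normalized counts per kilobase of exon. The choroid plexus sum ran from 293.8 to 23540, with 21130 in WT replicate 1 and its highest value in Sgo1-/+ replicate 3, and the olfactory bulb sum from 344.8 to 3027. Calb2, which is also on the cerebellar list, made up 2346 of the 2618 olfactory bulb counts of WT replicate 1. Without Calb2 the olfactory bulb sums were 271.9, 1799 and 1590 in WT and 904, 221.9 and 108.5 in Sgo1-/+. Olfactory bulb, like cerebellum, was said to have been removed. By edgeR without WT replicate 1, 6 of 6 olfactory bulb markers had an unadjusted p under 0.05, against 3.77% of genes. None passed with adjustment. Their median log2 fold change was -2.14, so the comparison without WT replicate 1 also held a regional difference between the genotypes.

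Arntl (ENSMUSG00000055116, mm10 chr7:113207465-113314122, plus strand), the partner shared by CLOCK and NPAS2, had 329.3, 375.2 and 480.8 normalized counts in WT and 404.3, 419.5 and 446.1 in Sgo1-/+, here and below in the order of replicates 1 to 3. The lowest and the highest library were both WT, and the Sgo1-/+ libraries lay between them. The mean was 395.1 ± 77.7 in WT and 423.3 ± 21.14 in Sgo1-/+ (SD, n = 3), with an exact two-sided permutation p of 0.6. With 3 libraries against 3 such a test cannot go below 0.1. The log2 fold change, here and below as Sgo1-/+ against WT, was 0.10 (SE 0.16, 95% interval -0.28 to 0.48), and -0.02 without WT replicate 1.

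Clock (ENSMUSG00000029238, chr5:76212177-76304548, minus strand), which encodes the usual partner of ARNTL, had 1072, 1106 and 1261 normalized counts in WT and 1075, 1116 and 1204 in Sgo1-/+. It was the steadiest member: its highest library exceeded its lowest by 1.18-fold, a ratio that 6.27% of the 16337 tested genes shared or undercut, while the median gene had 1.62-fold. The group means were 1146 ± 100.6 and 1132 ± 66.13, with a log2 fold change of -0.02 (SE 0.11, 95% interval -0.28 to 0.24) and an exact permutation p of 0.9. The fold change was -0.06 without WT replicate 1.

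Npas2 (ENSMUSG00000026077, chr1:39193731-39363234, plus strand) encodes a paralog of CLOCK that is prominent in forebrain neurons. It had 98.69, 610.4 and 599.5 normalized counts in WT and 633.8, 579.5 and 425.6 in Sgo1-/+. WT replicate 1 alone was low, at 0.165 of the median of the other 5 libraries, and 1.48% of tested genes were as low in that library relative to the rest. It was the 1 member of 10 at or under 0.5 of that median, as were 8.53% of tested genes. The ratio of highest to lowest library was 6.42, at or above that of 95.5% of tested genes. With Per1 it was 1 of 2 members that spanned at least 2-fold, a range reached by 32.5% of tested genes. By genotype the means were 436.2 ± 292.3 and 546.3 ± 108, with an exact permutation p of 0.7 and a log2 fold change of 0.32 (SE 0.59, 95% interval -1.08 to 1.73). Without WT replicate 1 the fold change was -0.15, and with sex as a term in the fit it was 0.63.

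**Figure D1:**
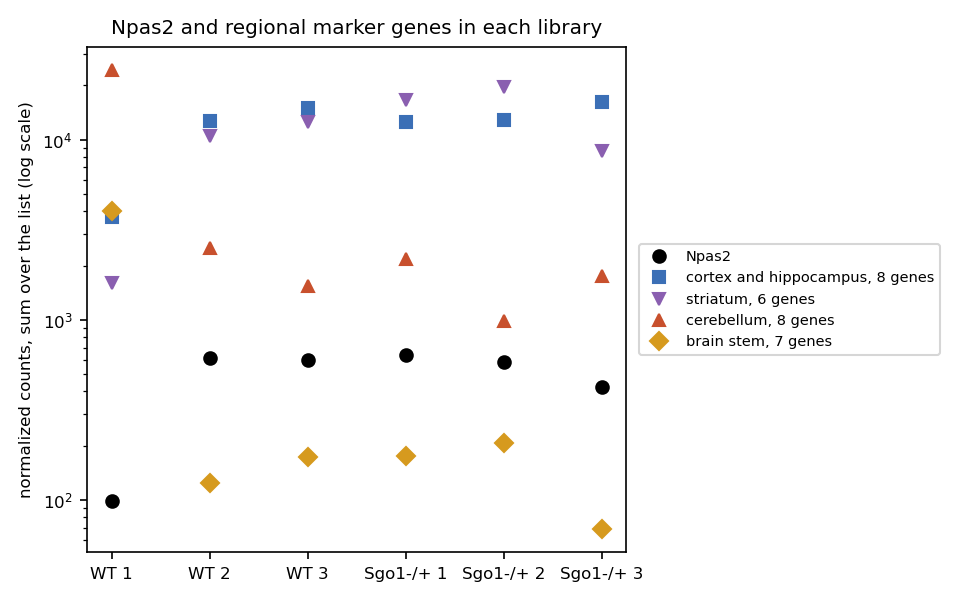
Normalized counts (log scale) in each of the 6 libraries for Npas2 and for the summed marker genes of 4 brain regions. In WT replicate 1 Npas2 (98.69) was low together with the cortical and hippocampal sum (3723) and the striatal sum (1593), and the cerebellar (24340) and brain stem (4038) sums were high.

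The low Npas2 value thus stood in the library with the lowest cortical and hippocampal and striatal sums, as the plot shows. The part of the regional markers in the Npas2 value was not tested. Among the other 5 libraries Npas2 was lowest in Sgo1-/+ replicate 3 (425.6), which had the lowest striatal sum of the 5 (8647) and their highest cortical and hippocampal sum (16240).

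Per1 (ENSMUSG00000020893, chr11:69095217-69109960, plus strand) encodes a repressor of the activating pair and is also induced at once by light, neuronal activity and glucocorticoids. It had 686.8, 1285 and 683.7 normalized counts in WT and 1063, 1434 and 807.2 in Sgo1-/+. Values in both genotypes spread widely and overlapped, with WT replicate 2 above 2 of the 3 Sgo1-/+ libraries. The means were 885.3 ± 346.5 and 1101 ± 315, with a log2 fold change of 0.31 (SE 0.31, 95% interval -0.42 to 1.05) and an exact permutation p of 0.5. The fold change was 0.16 without WT replicate 1.

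Per2 (ENSMUSG00000055866, chr1:91415984-91459330, minus strand), whose product is the repressor most needed for rhythm, had 430, 333.3 and 246.5 normalized counts in WT and 262.3, 404.3 and 485 in Sgo1-/+. Both genotypes ran from about the same low value to a high one. The log2 fold change was 0.19 (SE 0.28, 95% interval -0.48 to 0.86), the exact permutation p was 0.7, and without WT replicate 1 the fold change was 0.40.

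Per3 (ENSMUSG00000028957, chr4:151003652-151044665, minus strand), a less essential paralog, had 580.1, 751.3 and 402.7 normalized counts in WT and 434.1, 469.1 and 523.8 in Sgo1-/+. The 3 Sgo1-/+ libraries fell inside the WT range. Its log2 fold change was -0.28 (SE 0.23, 95% interval -0.82 to 0.25), also -0.28 without WT replicate 1, with an exact permutation p of 0.5. Across the libraries the 3 Per genes did not keep step: Per1 was highest in Sgo1-/+ replicate 2, Per2 in Sgo1-/+ replicate 3 and Per3 in WT replicate 2.

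Nr1d1 (ENSMUSG00000020889, chr11:98767932-98775333, minus strand), which encodes the heme-binding repressor REV-ERBα, had 1360, 1648 and 1674 normalized counts in WT and 1626, 1848 and 1675 in Sgo1-/+. WT replicate 1 was the lowest and the other 5 libraries were close together. The means were 1561 ± 174.5 and 1716 ± 116.6, the log2 fold change 0.14 (SE 0.12, 95% interval -0.15 to 0.43) and the exact permutation p 0.4. Without WT replicate 1 the fold change was 0.05. Of its exon bases, 8.55% are shared with Thra on the other strand, and the library kit does not mark strand.

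Nr1d2 (ENSMUSG00000021775, chr14:18204054-18239127, minus strand), the REV-ERBβ gene, had 2325, 1768 and 1618 normalized counts in WT and 1489, 1542 and 1851 in Sgo1-/+. It was highest in WT replicate 1, the library in which Nr1d1 was lowest. The means were 1904 ± 372.6 and 1627 ± 195.3, the log2 fold change -0.23 (SE 0.17, 95% interval -0.63 to 0.17) and the exact permutation p 0.4. Without WT replicate 1 the fold change was -0.06.

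Dbp (ENSMUSG00000059824, chr7:45705088-45710155, plus strand), a D-box activator and the member with the widest known daily rhythm, had 579, 707.5 and 628.9 normalized counts in WT and 535.5, 920 and 747.9 in Sgo1-/+. The lowest and the highest library were both Sgo1-/+. The means were 638.5 ± 64.75 and 734.4 ± 192.6, with a log2 fold change of 0.20 (SE 0.20, 95% interval -0.28 to 0.68) and an exact permutation p of 0.6. The fold change was 0.14 without WT replicate 1, 0.0028 without Sgo1-/+ replicate 2, which had the highest value, and 0.39 without Sgo1-/+ replicate 1, which had the lowest (unadjusted p = 0.0537 by edgeR). Sphk2 overlaps 18.0% of the exon bases of Dbp on the other strand, so reads of both genes cannot be told apart there.

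Tef (ENSMUSG00000022389, chr15:81802421-81826861, plus strand), another D-box activator, had 3480, 5549 and 4389 normalized counts in WT and 4559, 5090 and 4314 in Sgo1-/+. Again both extremes belonged to WT. The log2 fold change was 0.06 (SE 0.19, 95% interval -0.38 to 0.50), the exact permutation p was 0.9, and without WT replicate 1 the fold change was -0.09.

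**Figure D2:**
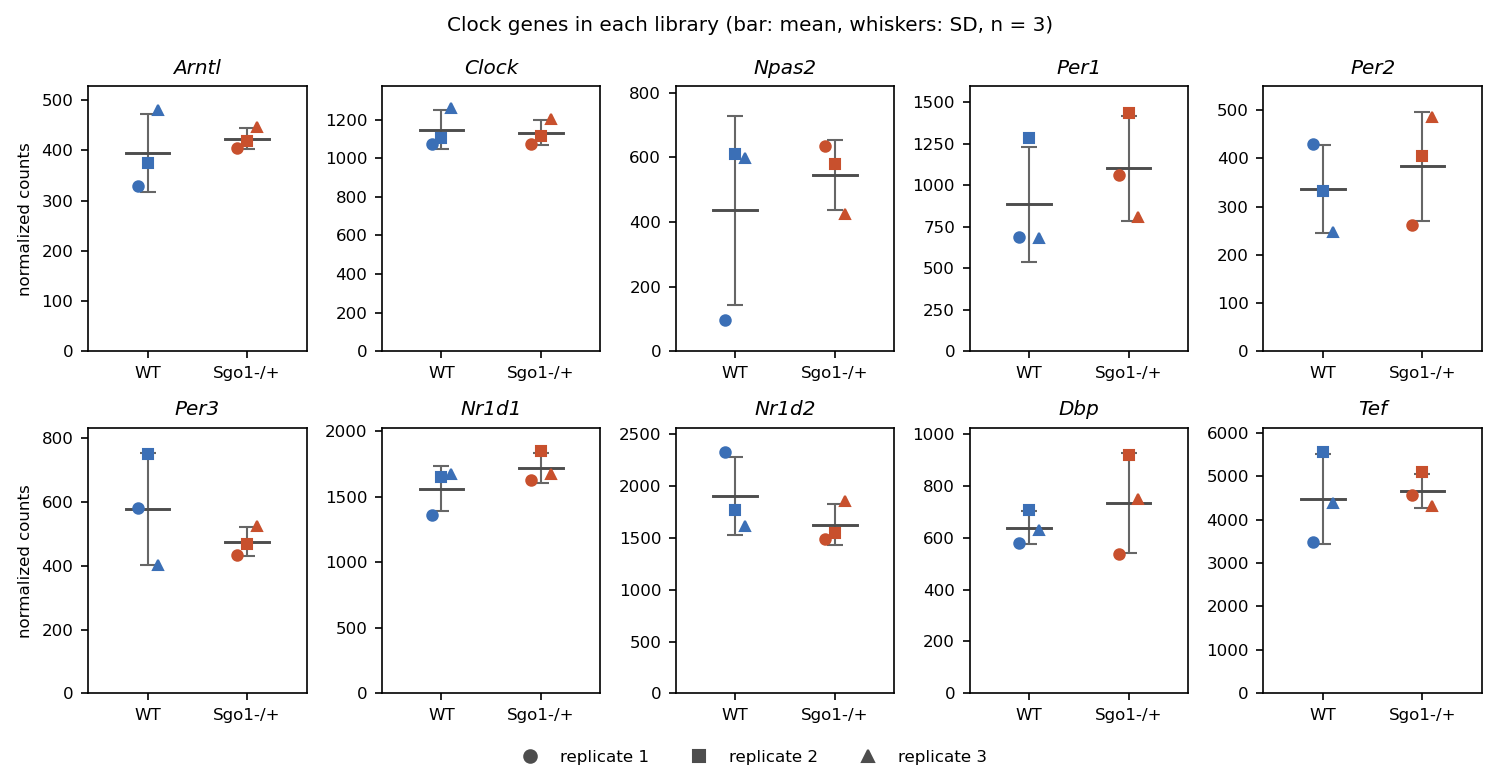
Normalized counts of the 10 clock genes in the 3 WT and 3 Sgo1-/+ libraries, with the mean (bar) and SD (whiskers, n = 3); symbols mark the replicate number, which only names a library. The genotypes overlap in 10 of 10 genes, and Npas2 in WT replicate 1 (98.69) lies far under the other 5 libraries.

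Between the genotypes, no clock gene passed the test. By edgeR, 0 of 10 members had an adjusted p under 0.05, against 0% of the 16337 genes tested, and the adjusted p of each was 0.9999. At an unadjusted p under 0.05 there were also 0 of 10, against 2.04% of all tested genes. The lowest unadjusted p among them was 0.221, for Nr1d2 by edgeR. In 10 of 10 members the values of the genotypes overlapped, while 6.81% of tested genes had genotypes that did not overlap. The log2 fold changes ran from -0.28 (Per3) to 0.32 (Npas2), 7 positive and 3 negative, with a median of 0.12, beside -0.00069 over all tested genes. Without WT replicate 1 the members' median was -0.04 and 4 of 10 were positive. DESeq2 also called 0 of 10, against 0.0184% of genes, and without WT replicate 1 edgeR gave 0 of 10 at an unadjusted p under 0.05, against 3.77%. The precision differed widely between members: the 95% interval of Clock ran from -0.28 to 0.24 on the log2 scale and that of Npas2 from -1.08 to 1.73.

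**Figure D3:**
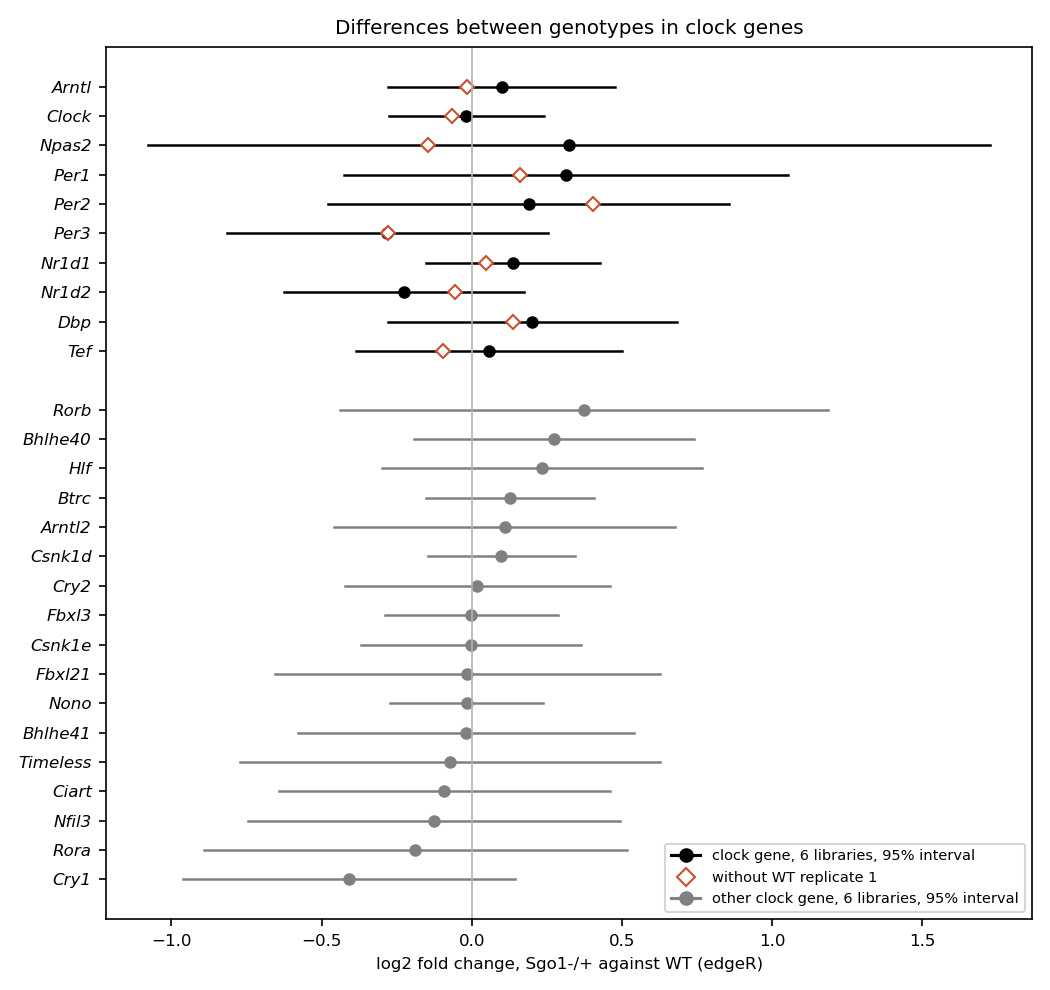
Log2 fold change (edgeR, Sgo1-/+ against WT) of the 10 clock genes and of 17 other clock genes, with 95% intervals over 6 libraries; open diamonds give the 10 genes without WT replicate 1. All the intervals drawn include 0, and that of Npas2 (-1.08 to 1.73) is the widest of the 10.

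Leaving out a WT library moved single members. Without WT replicate 2, Per1 had a log2 fold change of 0.69 (SE 0.25, unadjusted p = 0.0364, adjusted p = 0.983), and 2.32% of genes had an unadjusted p under 0.05 in that fit. Without WT replicate 3, Per3 had -0.48 (SE 0.16, unadjusted p = 0.0262, adjusted p = 0.764), and the share of genes was 6.21%. Neither gene passed with adjustment.

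The 2 arms were then set against each other within each library. The mean log2 value of Arntl, Clock and Npas2, each relative to its own mean over the 6 libraries, minus that of the other 7 members, is called the clock index here. In WT it was -0.76, -0.06 and 0.52, and in Sgo1-/+ it was 0.32, -0.03 and 0.01. WT replicates 1 and 3 held the ends of the range and the Sgo1-/+ libraries lay between them. The group means were -0.10 ± 0.64 in WT and 0.10 ± 0.19 in Sgo1-/+ (SD, n = 3), a difference of 0.20. Without WT replicate 1 the difference was -0.13. As a score over the members it has no p.

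Most of the low index of WT replicate 1 was Npas2, at -2.09 against its mean, where Arntl was at -0.30 and Clock at -0.08. An index without Npas2, added after the values were seen, was -0.13, -0.26 and 0.42 in WT and 0.11, -0.17 and 0.04 in Sgo1-/+, a difference between the means of -0.02. The ends of the range were then WT replicates 2 and 3.

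In WT replicate 3, the library with the highest index, the 3 positive arm genes were above their means (Arntl 0.24, Clock 0.15 and Npas2 0.51 on the log2 scale). The 3 Per genes were below theirs there (Per1 -0.48, Per2 -0.50 and Per3 -0.35). Nr1d2 (-0.11), Dbp (-0.10) and Tef (-0.04) were below by less, and Nr1d1 (0.04) was slightly above. In WT replicate 2, Per1 (0.43), Per3 (0.54) and Tef (0.30) were above their means, but so was Npas2 (0.53). Arntl (-0.12) was below its mean. Per2 (-0.07), Clock (-0.04), Dbp (0.07), Nr1d2 (0.02) and Nr1d1 (0.01) were closer to theirs. In Sgo1-/+ replicate 2, Per1 (0.59), Dbp (0.45), Per2 (0.21), Nr1d1 (0.18) and Tef (0.17) were above their means, as was Npas2 (0.46). Arntl (0.05) and Clock (-0.03) were near theirs, and Nr1d2 (-0.18) and Per3 (-0.14) were below. In Sgo1-/+ replicate 1, Dbp (-0.34) and Per2 (-0.41) were low, with Per3 at -0.25 and Nr1d2 at -0.23, while Npas2 was at 0.59 and Per1 at 0.16. Sgo1-/+ replicate 3 had Per2 at 0.47, with Per1 at -0.24 and Arntl at 0.14.

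**Figure D4:**
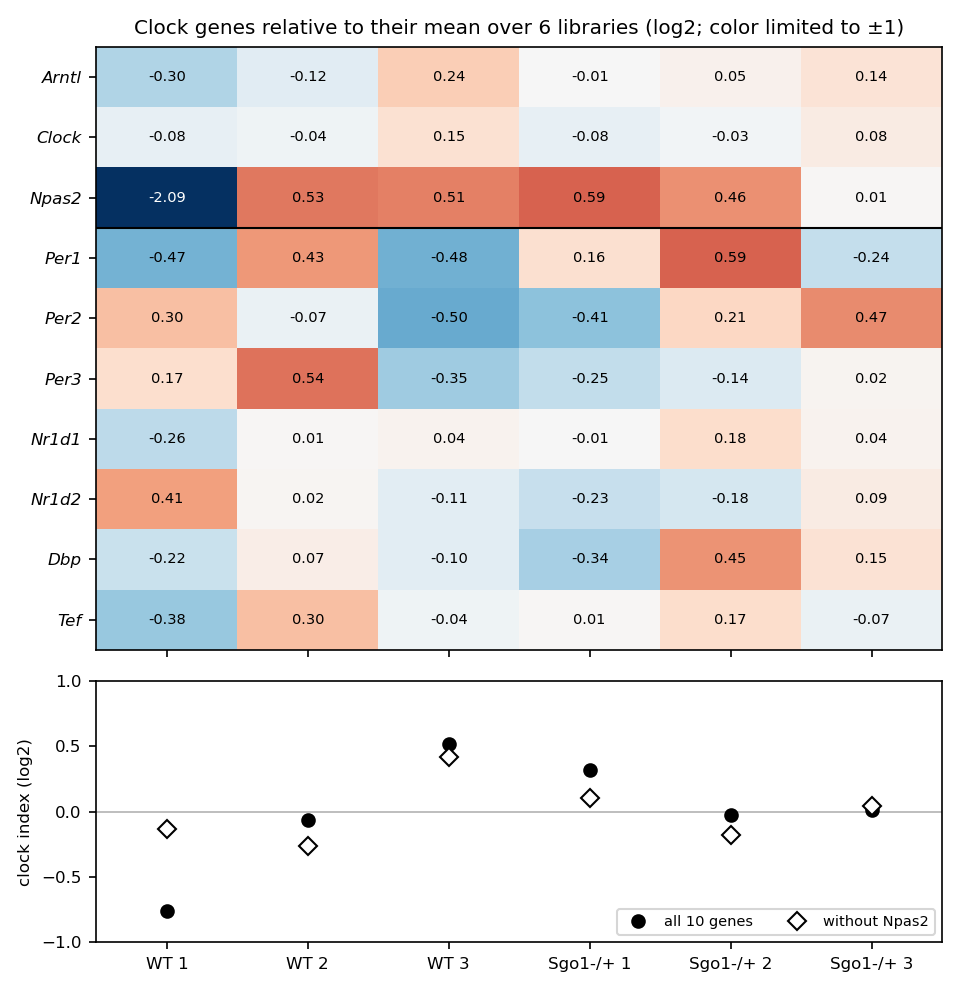
Top, log2 normalized count (plus 0.5) of each clock gene relative to its mean over the 6 libraries, with the color limited to ±1 and the value printed in each cell. Bottom, the clock index of each library with all 10 genes and without Npas2; it runs from -0.76 (WT replicate 1) to 0.52 (WT replicate 3), and from -0.26 to 0.42 without Npas2.

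Arntl was compared with each of the other 9 members across the 6 libraries, on log2 normalized counts. Genotype and run divide these libraries, WT replicate 1 differs from the rest in regional markers, and 3 libraries of a genotype are too few for a correlation within it. Arntl and Clock, both of the positive arm, went together (r = 0.843, exact permutation p = 0.0264, adjusted over the 9 pairs p = 0.237; rho = 0.943, exact p = 0.0167, adjusted p = 0.15), and r was 0.734 without WT replicates 1 and 3, which lay farthest from the median of Arntl, and 0.887 without WT replicate 1. None of the 9 pairs passed with adjustment.

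Opposite phase would give Arntl negative correlations with Per, Nr1d and Dbp. The lowest values over 6 libraries were with Nr1d2 (r = -0.663, exact permutation p = 0.151, adjusted p = 0.305; rho = -0.314, exact p = 0.564, adjusted p = 0.846) and Per3 (r = -0.645, exact p = 0.169, adjusted p = 0.305; rho = -0.714, exact p = 0.136, adjusted p = 0.408). Leaving out the same 2 libraries, r was 0.15 with Nr1d2 and -0.607 with Per3. Without WT replicate 1 alone it was 0.0143 with Nr1d2 and -0.728 with Per3, so the value for Nr1d2 rested on that library. For Per1, r was -0.0656 (exact p = 0.906, adjusted p = 0.906; rho = -0.257, exact p = 0.658, adjusted p = 0.846), -0.613 without the 2 libraries and -0.819 without WT replicate 1. For Per2, r was -0.338 (exact p = 0.517, adjusted p = 0.656; rho = -0.257, exact p = 0.658, adjusted p = 0.846), 0.682 without them and -0.0885 without WT replicate 1.

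Nr1d1 went in the other direction, with r = 0.723 (exact permutation p = 0.1, adjusted p = 0.305; rho = 0.714, exact p = 0.136, adjusted p = 0.408), 0.319 without WT replicates 1 and 3, and 0.118 without WT replicate 1. With Dbp, r was 0.286 (exact p = 0.583, adjusted p = 0.656; rho = 0.371, exact p = 0.497, adjusted p = 0.846), 0.3 without the 2 libraries and -0.0215 without WT replicate 1. For Tef, r was 0.31 (exact p = 0.561, adjusted p = 0.656; rho = -0.0286, exact p = 1, adjusted p = 1), -0.813 without them and -0.804 without WT replicate 1. For Npas2, r was 0.711 (exact p = 0.133, adjusted p = 0.305; rho = 0.0857, exact p = 0.919, adjusted p = 1), -0.804 without them and -0.363 without WT replicate 1. The signs with Npas2, Tef, Nr1d2 and Dbp thus turned without WT replicate 1, and that with Per2 turned without WT replicate 3 (0.0764). The sign with Per1 turned without WT replicate 2 (0.0812), WT replicate 3 (0.366) or Sgo1-/+ replicate 3 (0.0231). 

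The rest of the pathway was read from a list of 17 other clock genes: the Cry repressors, the activators Rora and Rorb, further repressors (Ciart, Bhlhe40, Bhlhe41 and Nfil3), Hlf, Arntl2, and the kinases, ubiquitin ligase subunits and cofactors that act on PER and CRY. All 17 were tested. By edgeR 0 of 17 passed with adjustment and 0 of 17 had an unadjusted p under 0.05, against 2.04% of all tested genes, and in 0 of 17 did the genotypes fail to overlap, against 6.81%. The log2 fold changes were positive in 7 and negative in 10, with a median of -0.0024 (0.0013 without WT replicate 1).

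The ends of the list were Rorb and Cry1. Rorb, a nuclear receptor found in sensory cortex and in the suprachiasmatic nucleus, had 266.9, 285.7 and 545.8 normalized counts in WT and 333.8, 452.9 and 635.4 in Sgo1-/+. Each genotype had its highest value in replicate 3, and the ranges overlapped, with a log2 fold change of 0.37 (SE 0.34, 95% interval -0.44 to 1.19), and 0.19 without WT replicate 1. Cry1, a partner of PER in the repressor complex, had 312.2, 359 and 195.8 in WT and 219.5, 237.1 and 196.4 in Sgo1-/+. Its low WT value was in replicate 3, where the Per genes were also low, and its log2 fold change was -0.41 (SE 0.23, 95% interval -0.96 to 0.14, unadjusted p = 0.123 by edgeR), and -0.35 without WT replicate 1.

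With a WT library left out, 3 genes of this list had an unadjusted p under 0.05 by edgeR. Over all genes tested, the share was 6.21% without WT replicate 3 and 2.32% without WT replicate 2. Without WT replicate 3, Cry1 had a log2 fold change of -0.62 (SE 0.15, unadjusted p = 0.00725, adjusted p = 0.764), and Rorb had 0.78 (SE 0.28, unadjusted p = 0.035, adjusted p = 0.764). Without WT replicate 2, Bhlhe40, an E-box repressor, had 0.51 (SE 0.14, unadjusted p = 0.0104, adjusted p = 0.983).

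Genes known as clock or temperature outputs were likewise not called, with 0 of 3 past the test. Usp2, a deubiquitinase with a strong daily rhythm, had log2 fold changes of 0.07 (SE 0.16) over all libraries and -0.09 without WT replicate 1. Wee1, a rhythmic cell cycle kinase, had -0.28 (SE 0.20), and -0.35 without that library. Cirbp, a cold-inducible RNA-binding protein that follows body temperature, had 908.4, 1622 and 797.3 normalized counts in WT and 1154, 777.1 and 687.5 in Sgo1-/+, with -0.35 (SE 0.31), and -0.47 without WT replicate 1. Its highest library was WT replicate 2, without which the log2 fold change was 0.03. A list of 8 heat and cold genes, which includes Cirbp, had 0 of 8 called, 4 positive and 4 negative, a median log2 fold change of 0.01 (-0.07 without WT replicate 1), and sums from 24220 to 26740 normalized counts in the 6 libraries. Most of these sums was Hspa8 (9063 to 11650) and Hsp90aa1 (8204 to 9262), so they say little of the other genes. Rbm3, also on this list, had 917.4, 1803 and 645.2 in WT and 1137, 795.3 and 690.6 in Sgo1-/+. Like Cirbp it was highest in WT replicate 2.

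Since Per1 also responds to signals outside the clock, it was set beside lists of genes that respond to the same signals. The 8 glucocorticoid response genes summed to 4745, 8938 and 4543 normalized counts in WT and 10550, 4810 and 6292 in Sgo1-/+. They were highest in WT replicate 2 and Sgo1-/+ replicate 1, which were also high in Per1 (1285 and 1063). In Sgo1-/+ replicate 2, which had the highest Per1 (1434), the glucocorticoid sum was 4810 and the sum of the 12 immediate early genes, which mark recent neuronal activity, was the highest of the 6 libraries, at 12130. The other immediate early sums were 2630, 5866 and 3143 in WT and 6204 and 9106 in Sgo1-/+ replicates 1 and 3. The 2 libraries with the lowest Per1, WT replicates 3 and 1, had the lowest immediate early sums. Sgo1-/+ replicate 3, the next lowest in Per1 (807.2), had a higher immediate early sum (9106) than WT replicate 2 and Sgo1-/+ replicate 1. Most of that sum was Egr1 (3745) and Arc (2113). Relative to each gene's median over the libraries, the median of the 12 genes on the log2 scale differed less. It was 0.108 in Sgo1-/+ replicate 3, 0.0751 in Sgo1-/+ replicate 1 and -0.000211 in WT replicate 2. The part of either signal in the Per1 values was not tested.

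By genotype, 12 of 12 immediate early genes had positive log2 fold changes (median 1.03, and 0.741 without WT replicate 1), 3 of 12 with an unadjusted p under 0.05, against 0.808% of all genes tested in that direction, and none with adjustment. Of the 12, 6 had genotypes that did not overlap, against 6.81% of all tested genes. Arc, which is in both counts, had been reported by the study as higher in Sgo1-/+ from the same libraries. The list was chosen with that result known and its genes respond together, so these counts are no test of the list. The regional neuron markers had the same sign: 6 of 6 striatal markers were positive (median 0.955, and 0.398 without WT replicate 1), as were 8 of 8 of cortex and hippocampus (median 0.585, and 0.323 without it). Their part in the difference of the immediate early genes was not tested. The glucocorticoid list had 8 of 8 positive, none with an unadjusted p under 0.05, with a median of 0.238 that dropped to 0.0348 without WT replicate 1. Beside these, Per1 had 0.31 with all 6 libraries and 0.16 without WT replicate 1.

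**Figure D5:**
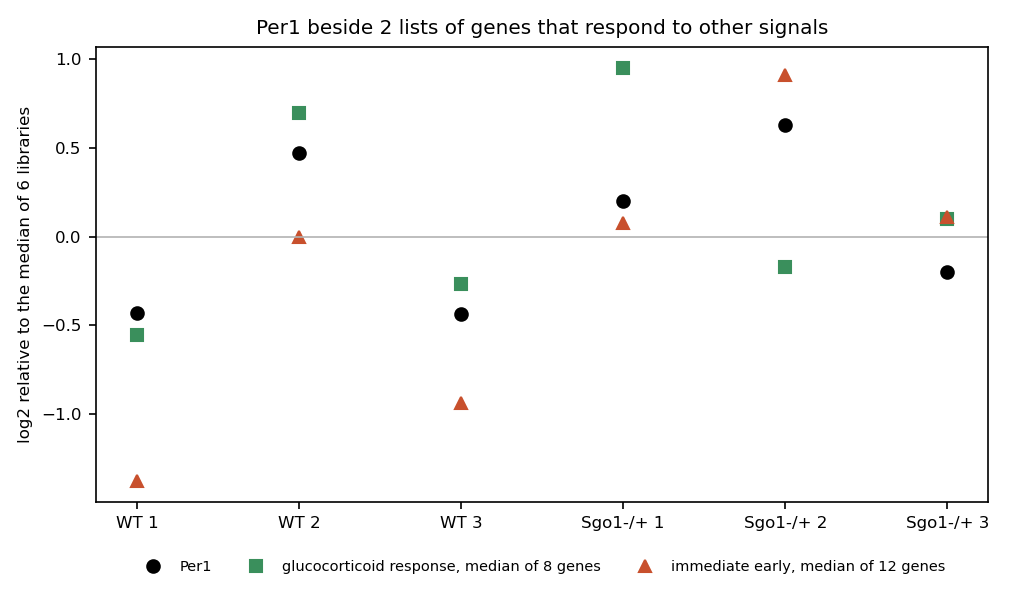
Log2 normalized count of Per1 in each library, relative to its median over the 6 libraries, beside the median of 8 glucocorticoid response genes and of 12 immediate early genes on the same scale. Per1 is high in WT replicate 2 and Sgo1-/+ replicate 1, where the glucocorticoid genes are high, and in Sgo1-/+ replicate 2, where the immediate early genes are highest.

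Per kilobase of exon, the members' levels spanned about an order of magnitude. The medians over the 6 libraries, in normalized counts per kilobase, were 568.7 for Tef, 539.8 for Nr1d1, 313 for Nr1d2, 223.3 for Dbp, 166.1 for Per1, 123 for Npas2, 80.9 for Clock, 62.97 for Per2, 54.75 for Arntl and 51.67 for Per3. Between neighbors in this order the ranges over the libraries overlapped, apart from Nr1d1 (441.8 to 601) and Nr1d2 (275.3 to 430). The positive arm genes were thus all in the lower part of the order, and Per1 stood above Per2 and Per3, whose highest libraries did not reach its lowest (121.4). Exon lengths were those of all annotated transcripts, so that a gene with long unused exons reads too low.

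Genes outside the clock lists were ranked by how closely they followed Dbp or Arntl over the 6 libraries, among 2033 genes with a mean of at least 100 normalized counts and at least a 2-fold range. With Dbp they were Phf16 (r = 0.873), Nr4a3 (0.869), Fosl2 (0.842), Nab2 (0.834) and AL772299.1 (0.823). Nr4a3, Fosl2 and Nab2 are genes of the immediate early response, and Nr4a3 is on the list above. With Arntl they were Mfge8 (r = 0.988), Ttl (0.986), Pak7 (0.978), Rasgef1b (0.978) and Lin7b (0.976). These 5 shared with Arntl its lowest value in WT replicate 1 and its highest in WT replicate 3: Mfge8, for example, had 562.9, 873.2 and 1603 normalized counts in WT and 1090, 1273 and 1454 in Sgo1-/+. The coefficients describe 6 libraries between which the regional markers and the run also differed. Each set of 5 is the top of a ranking of 2033 genes. Its r values by themselves therefore show no link with Dbp or Arntl, and none was tested.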

How the data were processed

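RNA-seq libraries (TruSeq v2, a kit that does not mark strand) were read on a MiSeq. The authors aligned the reads to mm10 in Strand NGS 2.1 and deposited an estimated count per gene, without normalization. The labels' processing notes also name BWA and edgeR. The counting annotation and its use of strand are not given in the sources used here. The authors' 6 columns of normalized log2 values and their fold changes were not used. Columns were assigned to samples by the names in the table's header.

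Estimated counts were rounded and fitted with edgeR 4.0.16 (TMM, filterByExpr, quasi-likelihood test, no covariates), with Benjamini-Hochberg adjustment over all genes tested; the SE is the log2 fold change divided by the square root of F. The code was tested on simulated data. A moderated test like the study's was run as an alternative with limma 3.58.1, on log2 DESeq-normalized counts plus 1. DESeq2 1.42.0 was another. Single genes were also compared by exact permutation tests over 20 groupings. Correlations and the index used log2 of normalized counts plus 0.5. Members and lists were chosen with earlier results of these data known. Named genes were the members, the ends of the list of 17 clock genes and those with an unadjusted p under 0.05 or no overlap, 3 outputs, the 5 genes most like Dbp and Arntl, and Sgo1; Bhlhe40 and the genes most like Per1 and Npas2 were added after their values were seen. Exon overlaps and lengths came from GENCODE M21, and promoter sequences from RefSeq (GRCm38.p6). Ciart and Drd1 were matched by gene ID. A gene of the clock list and a brain stem marker are not reported here and were left out of the list counts and sums. The samples' labels do not say that libraries of a genotype shared a litter, and p-values measure the spread between these libraries.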

Additional observations from a re-analysis of the deposited data

How the results depend on the processing

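No clock gene passed an adjusted p of 0.05 in any of 13 alternatives to the count model, and the lowest adjusted p of a clock gene was 0.764. Over all genes, 0 passed by edgeR, 0 by limma, 3 by DESeq2 and 1 by edgeR without Sgo1-/+ replicate 2. The study, with its own software, reported genes at an adjusted p under 0.05, which the limma fit did not give. By edgeR an unadjusted p under 0.05 was reached by 333 genes, and by 563 with no filter on low counts. The count was 240 to 1040 with a library left out (626 without WT replicate 1 and 1040 without WT replicate 3). With a library left out, 0 to 1 members and 0 to 2 of the other clock genes had an unadjusted p under 0.05. Replicate numbers did not pair the samples: deviations of same-numbered libraries had r = -0.146, 0.014 and -0.207. With the replicate block in edgeR, members with an unadjusted p under 0.05 stayed at 0. Rorb alone of the other clock genes had one, for a count of 1 (log2 fold change 0.40, unadjusted p = 0.0439, adjusted p = 1).

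The members' log2 fold changes kept their sign in 70 of 70 values under alternatives that kept all 6 libraries. With a library left out, 7 of 60 turned: Arntl (-0.0153 to 0.27), Npas2 (-0.15 to 0.65) and Tef (-0.0943 to 0.24) without WT replicate 1, Tef also without Sgo1-/+ replicate 2 (-0.0162), Clock (-0.0655 to 0.0566) without WT replicate 3 or Sgo1-/+ replicate 1 (0.0177), and Per2 (-0.0141 to 0.40) without Sgo1-/+ replicate 3. Their exact permutation p then ran from 0.1 to 0.9 for Arntl, 0.6 to 1 for Npas2, 0.3 to 1 for Tef and Per2, and 0.4 to 1 for Clock. Of the other genes, Usp2 (-0.0918 to 0.16) turned without WT replicate 1 and Cirbp (-0.60 to 0.0341) without WT replicate 2. The other members kept their sign, over ranges of 0.0734 to 0.685 (Per1), -0.484 to -0.0466 (Per3), 0.0475 to 0.192 (Nr1d1), -0.329 to -0.0571 (Nr1d2) and 0.0028 to 0.386 (Dbp). Correlations of Arntl over 5 libraries ran from 0.729 to 0.919 with Clock, 0.118 to 0.83 with Nr1d1, -0.737 to -0.473 with Per3, -0.363 to 0.847 with Npas2, -0.819 to 0.366 with Per1, -0.708 to 0.0764 with Per2, -0.783 to 0.0143 with Nr1d2, -0.0215 to 0.514 with Dbp and -0.804 to 0.668 with Tef. The cause was not tested. The difference of the clock index was 0.201 with a pseudocount of 1, 0.219 without Dbp, and -0.129 to 0.512 with a library left out. Depth limited Sgo1, and 3 libraries a genotype limited the rest.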

Other observations

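The genes most like Per1 and Npas2 were looked up after their values were seen. Sik1, a kinase that CREB induces and that limits clock resetting by light, followed Per1 most closely of the 2033 genes compared (r = 0.991 over 6 libraries). It had 139, 281.9 and 118.7 normalized counts in WT and 215.6, 304 and 155.5 in Sgo1-/+, so that the 3 libraries high in Per1 were also those high in Sik1. Nr4a1 (0.841) and Junb (0.833), both immediate early genes, were among the next 4.

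With Npas2, the highest r belonged to D430019H16Rik (1.0), followed by 2010204K13Rik, Add2, Lmo7 and Plxna2 (0.999 each). Lmo7 had 158.1, 1443 and 1441 normalized counts in WT and 1622, 1506 and 1023 in Sgo1-/+. As with Npas2, WT replicate 1 was far below the other 5 libraries and Sgo1-/+ replicate 3 was the next lowest. Over the other 5 libraries r was 0.995 with D430019H16Rik, 0.974 with Lmo7 and between 0.97 and 0.983 with the remaining 3 genes. For Sik1 and Per1 it was 0.997.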
